A study of Rattus norvegicus with 4 samples.

Results

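The nuclear subunit genes of respiratory chain complexes III, IV and V were compared between cells treated with siScramble and with siTbk1. The cells were INS-1 832/13, a clonal rat insulinoma line of β-cell type that secretes insulin in response to glucose. Members were the protein_coding rows whose names start with Uqcr (complex III), Cox4 to Cox8 (complex IV) or Atp5 (complex V), together with Cyc1, a complex III subunit, and Cycs, the soluble cytochrome c that carries electrons from complex III to complex IV. This rule gave 38 genes of 15172 listed, namely 9 of complex III, 11 of complex IV, 17 of complex V and Cycs. No row with such a name had another biotype.

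The control group (siScramble) had been transfected with a non-targeting siRNA and the silenced group (siTbk1) with a pool of siRNAs against Tbk1, which encodes a serine/threonine kinase known from innate immune signalling. Both groups came from the same line, had been transfected for 36 h with the same reagent and received no further agent. The comparison addressed how the transcriptome of β-cells changed when TBK1 was depleted. Each group held 2 libraries, replicates 2 and 3, of polyadenylated RNA. The sources do not say whether these were separate cultures, so p-values measure only the spread between these libraries, which may be technical.

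Complex III takes electrons from ubiquinol and passes them to cytochrome c, complex IV passes them from cytochrome c to oxygen, and complex V uses the resulting proton gradient to make ATP. A few catalytic or membrane subunits of each complex are encoded by the mitochondrial genome and the rest by nuclear genes. In β-cells, ATP made in this way closes the ATP-sensitive potassium channel and so couples glucose metabolism to insulin release.

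Total counts were between 38428926 and 47759013 per library, with 1 deeper and 1 shallower library in each group. Values are given as CPM, counts per 1000000 counts, after scaling of each library by the trimmed mean of M values (TMM), with factors from 0.982 to 1.02. Tbk1 itself (chr7:63655247-63687979 in rn6) was at 53.7 and 52.5 CPM in the siScramble libraries and at 11.8 and 13.3 CPM in the siTbk1 libraries, so that it fell by 76.4%. All 9 β-cell markers examined were detected, and they did not move together. Ins1 was at 10383 and 11092 CPM in siScramble and at 7520.3 and 6244 CPM in siTbk1 libraries, whereas Iapp, which encodes amylin, was at 922 and 988 CPM in siScramble and at 1210.3 and 1267 CPM in siTbk1 libraries. Ins2, Slc2a2, Pdx1 and Pcsk2 were, like Ins1, below both controls in both siTbk1 libraries. Pcsk1 and Nkx6-1 were, like Iapp, above both controls in both siTbk1 libraries, and the groups overlapped for Chga. The summed level of the 9 markers, of which Ins1 is the largest part, ranged from 20188 to 21039 CPM in siScramble and from 15778 to 17444 CPM in siTbk1 libraries, and its part in the results below was not tested. Of 12 markers of other islet, exocrine, stromal and blood cells, Gcg was detected at 1389 and 1313.5 CPM in siScramble and at 815 and 878 CPM in siTbk1 libraries, and the other 11 were not analysed here. In bulk RNA, a change in every cell and a change in the share of responding cells cannot be told apart.

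Silencing of Tbk1 went with lower mRNA of 15 of the 38 members and higher mRNA of 4, at an adjusted p under 0.05 in edgeR's quasi-likelihood test across 13953 genes. The lower genes lay in all 3 complexes, and the 4 higher genes in complexes III and V. The fall was largest for Atp5f1d, the δ subunit of ATP synthase, and for Uqcr10 and Uqcr11, a pair of small accessory subunits of complex III. The higher genes were Uqcrc2 and Uqcrfs1 of complex III and Atp5pb and Atp5pd of the ATP synthase stalk. Complexes III and V therefore each held subunits that went in opposite directions.

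As a share, 39.5% of the members were lower and 10.5% higher, where 24.8% of all tested genes were lower and 24.4% higher. The median log2 fold change was −0.07 over the members (range −0.70 to 0.24) and 0.01 over all tested genes. All 38 members passed the filter on low counts, the smallest count being 1044 reads of Uqcr10 in a siTbk1 library, so that none entered through a single group. Both siTbk1 libraries lay below both siScramble libraries for 18 members (47.4%) and above them for 6 (15.8%), with 37.9% and 38.7% of all tested genes as background. The remaining 14 members overlapped. At the 1.5-fold limit the study used together with an adjusted p under 0.05, 2 members (5.26%), Atp5f1d and Uqcr10, were lower against 6.18% of all tested genes, and no member was higher (the largest rise was 0.24 on the log2 scale) against 4.81%. With unadjusted p under 0.05 and no fold limit, 15 members were lower and 5 higher, and a test against 1.5-fold itself (glmTreat) called 0 members, with 1, Atp5f1d, at an unadjusted p under 0.05. Most changes were small. The share of lower members was above that of all tested genes without a fold limit and slightly under it with one. After correction for genomic span, described below, it was also slightly under it without a fold limit (21.1% of members against 23.6% of all tested genes).

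**Figure D1:**
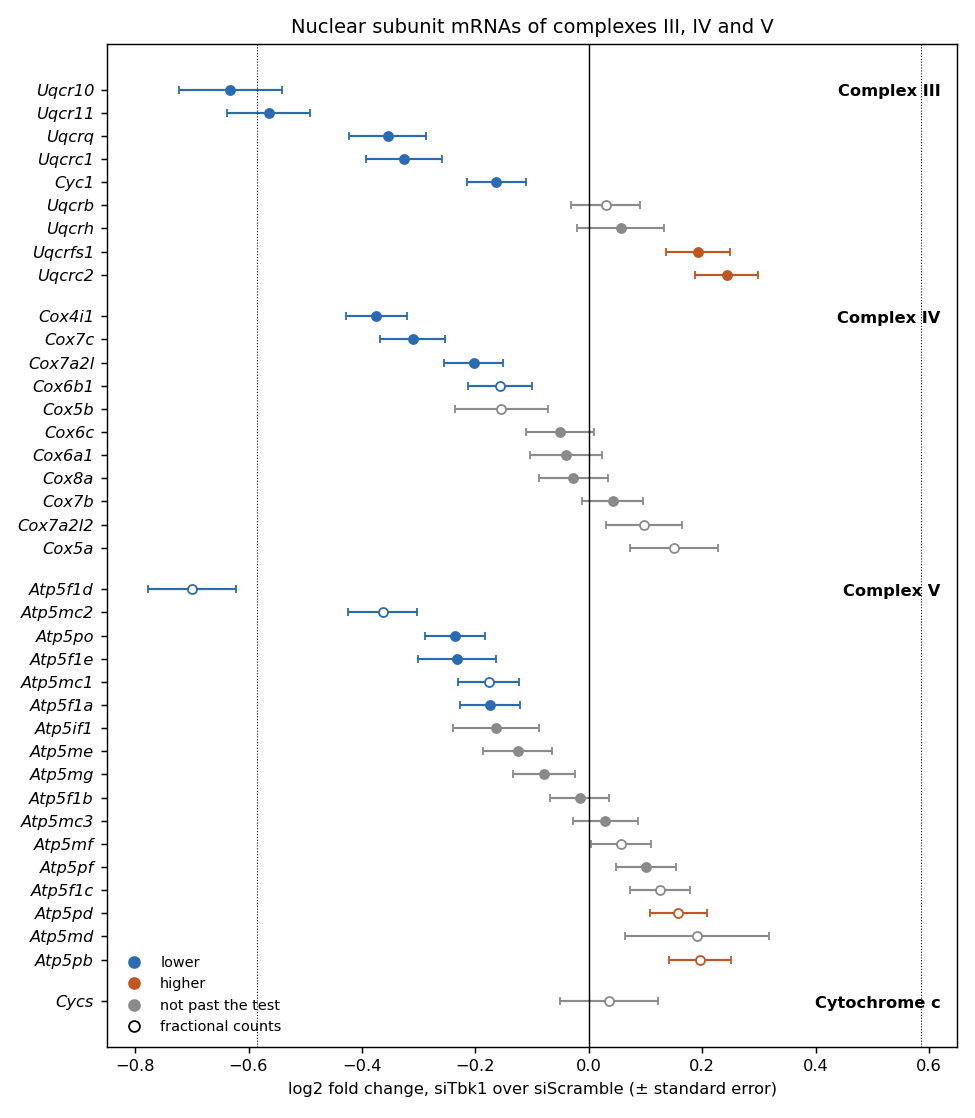
Log2 fold change (siTbk1 over siScramble, ± standard error) of each of the 38 members, grouped by complex and sorted within it, with blue for lower, orange for higher and grey for genes not past the test. Open circles mark genes with fractional counts, and dotted lines mark the 1.5-fold limit, which 2 genes passed, Uqcr10 at −0.63 and Atp5f1d at −0.70.

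With libraries paired by their number, which is all that pairs them in the labels, changes were larger in replicate 3. The log2 ratio of siTbk1 to siScramble was farther from 0 in replicate 3 than in replicate 2 for 33 of 38 members (86.8%), as it was for 70.6% of all tested genes. Its median over the members was −0.05 in replicate 2 and −0.11 in replicate 3, and 30 of 38 members had the same sign in both. With each library left out in turn, 9 of the 15 lower members (Uqcr10, Uqcr11, Uqcrq, Uqcrc1, Cox4i1, Cox7c, Atp5f1d, Atp5mc2 and Atp5po) and 1 of the 4 higher members (Uqcrc2) passed the test every time. The library that each of the other calls rested on is given with the gene.

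In complex III, 5 of 9 subunits (55.6%) were lower and 2 (22.2%) higher, beside 24.8% and 24.4% of all tested genes. The other 2 subunits of the complex did not pass the test. The median log2 fold change was −0.16, and the median deviation of its genes from their 4-library mean, on the log2 CPM scale, was 0.07 and 0.09 in the siScramble libraries and −0.08 and −0.09 in the siTbk1 libraries. The summed level nevertheless differed little, at 1060.4 and 1085 CPM in siScramble and 1055 and 1102 CPM in siTbk1 libraries. The sum weights genes by their counts, and both higher genes took more counts than any of the lower ones.

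The 3 largest changes in the complex were falls of small accessory subunits, which surround the catalytic core. Uqcr10 (chr14:84935486-84937726) was at 39.2 and 48.6 CPM in siScramble and at 28.8 and 27.7 CPM in siTbk1 libraries, or 43.9 ± 6.66 and 28.3 ± 0.838 (SD, n = 2 each). The groups did not overlap although the siScramble libraries were apart from each other, and the log2 fold change was −0.63 (SE 0.09, adjusted p = 0.00015), so that the level fell by 35.5%. Without siScramble replicate 3, the higher of its controls, it remained lower but under the 1.5-fold limit (−0.47). Uqcr11 (chr7:12171185-12175836) was at 53.2 and 61.2 CPM in siScramble and at 39.3 and 37.9 CPM in siTbk1 libraries, a log2 fold change of −0.56 (SE 0.07, adjusted p = 7.9e-05). Without siScramble replicate 2 or siTbk1 replicate 2 this gene also passed the 1.5-fold limit, at −0.66 and −0.60. Uqcrq (chr10:38779132-38782420), also known as ubiquinone-binding protein QP-C, was at 45.7 and 50.5 CPM in siScramble and at 37.0 and 38.2 CPM in siTbk1 libraries, and its log2 fold change was −0.35 (SE 0.07, adjusted p = 0.0010). All 3 genes were low in both siTbk1 libraries. The other small subunits, Uqcrb (0.03, adjusted p = 0.71) and Uqcrh, the hinge protein that docks cytochrome c (0.06, adjusted p = 0.58), did not pass the test.

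The 4 core subunits measured here split evenly. Uqcrc1 (chr8:117679278-117691072), a core protein that faces the matrix, was at 82.1 and 87.6 CPM in siScramble and at 71.4 and 63.8 CPM in siTbk1 libraries, with a log2 fold change of −0.33 (SE 0.07, adjusted p = 0.0017). Its partner Uqcrc2 (chr1:190555177-190585735) was at 229 and 219.5 CPM in siScramble and at 256 and 275 CPM in siTbk1 libraries, with a log2 fold change of 0.24 (SE 0.06, adjusted p = 0.0033). Both proteins form the matrix arm together, and their mRNAs lay on opposite sides of the controls in both siTbk1 libraries. The ratio of Uqcrc2 to Uqcrc1 counts was 2.79 and 2.51 in siScramble and 3.58 and 4.32 in siTbk1 libraries.

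The remaining core pair was divided too. Cyc1 (chr7:117409576-117411954), which carries the heme that reduces cytochrome c, was at 136 and 138 CPM in siScramble and at 123 and 121 CPM in siTbk1 libraries (log2 fold change −0.16, SE 0.05, adjusted p = 0.020). Uqcrfs1 (chr17:35677984-35682260), the Rieske iron-sulfur protein that hands electrons to Cyc1, was at 249.6 and 231 CPM in siScramble and at 268 and 282 CPM in siTbk1 libraries (log2 fold change 0.19, SE 0.06, adjusted p = 0.014). Neither call held in every subset. Cyc1 was not called without siScramble replicate 3 or without siTbk1 replicate 3 (−0.15 in both), nor was Uqcrfs1 without the same libraries (0.14 and 0.15). The ratio of Uqcrfs1 to Cyc1 counts was 1.84 and 1.68 in siScramble and 2.17 and 2.32 in siTbk1 libraries. These ratios and those given below were chosen after the values were seen, and 2 libraries a group allow no two-sided exact permutation p under 0.333, which each of them reached. They are ratios of counts, not of transcripts. Correction for genomic span moved the log2 difference of Uqcrc2 over Uqcrc1 from 0.57 to 0.47 and left that of Uqcrfs1 over Cyc1 at 0.36. After this correction Cyc1 was not called (−0.05, adjusted p = 0.46), and Uqcrfs1 stayed higher (0.31, adjusted p = 0.0023).

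Promoter sequences of 4 complex III subunits are shown because these genes belong to one complex and moved in opposite directions. They were taken from RefSeq (GRCr8, 250 bases before to 50 after the gene start) and run 5′ to 3′ on the strand of the gene. Capitals mark the cores of sites of factors known for respiratory chain genes, namely NRF1 (GCATGCGC), ETS/GABP (CCGGAAG), YY1 (AAGATGGC), ERR (AAGGTCA), SP1 (GGGCGG) and CREB (TGACGTCA), on either strand. The windows are chr8:118467973-118468272 (+) for Uqcrc1, chr1:184598990-184599289 (+) for Uqcrc2, chr14:83791865-83792164 (−) for Uqcr10 and chr10:38089929-38090228 (−) for Uqcrq.
Uqcrc1: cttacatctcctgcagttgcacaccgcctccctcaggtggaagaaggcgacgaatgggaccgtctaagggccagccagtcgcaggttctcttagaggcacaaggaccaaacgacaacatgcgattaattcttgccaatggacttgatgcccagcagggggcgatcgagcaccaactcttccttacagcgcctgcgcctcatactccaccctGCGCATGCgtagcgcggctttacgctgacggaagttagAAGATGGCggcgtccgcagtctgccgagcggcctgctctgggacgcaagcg
Uqcrc2: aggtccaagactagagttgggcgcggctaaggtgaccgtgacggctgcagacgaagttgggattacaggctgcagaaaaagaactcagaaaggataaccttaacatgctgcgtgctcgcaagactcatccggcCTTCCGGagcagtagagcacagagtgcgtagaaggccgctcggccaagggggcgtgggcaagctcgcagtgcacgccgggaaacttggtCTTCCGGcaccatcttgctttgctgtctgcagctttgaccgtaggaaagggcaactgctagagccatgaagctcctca
Uqcr10: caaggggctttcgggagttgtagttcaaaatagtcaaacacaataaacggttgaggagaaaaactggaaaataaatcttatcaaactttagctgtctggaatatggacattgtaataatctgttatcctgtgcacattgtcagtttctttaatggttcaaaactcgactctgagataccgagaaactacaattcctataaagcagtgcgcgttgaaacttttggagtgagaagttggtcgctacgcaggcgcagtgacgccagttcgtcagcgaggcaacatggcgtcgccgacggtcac
Uqcrq: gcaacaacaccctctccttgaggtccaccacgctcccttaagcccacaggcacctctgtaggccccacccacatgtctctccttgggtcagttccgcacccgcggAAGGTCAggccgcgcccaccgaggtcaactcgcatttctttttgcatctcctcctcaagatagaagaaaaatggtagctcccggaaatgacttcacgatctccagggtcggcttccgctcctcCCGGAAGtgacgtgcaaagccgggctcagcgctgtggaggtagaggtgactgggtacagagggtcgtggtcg
The window of Uqcrc1, which was lower, holds an NRF1 and a YY1 core. That of Uqcrc2, which was higher, holds an ETS/GABP core in 2 places and no other. Uqcr10, with the largest fall of the complex, holds none of the 6, and Uqcrq holds an ERR and an ETS/GABP core. A match describes letters only and does not show that a factor was bound.

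**Figure D2:**
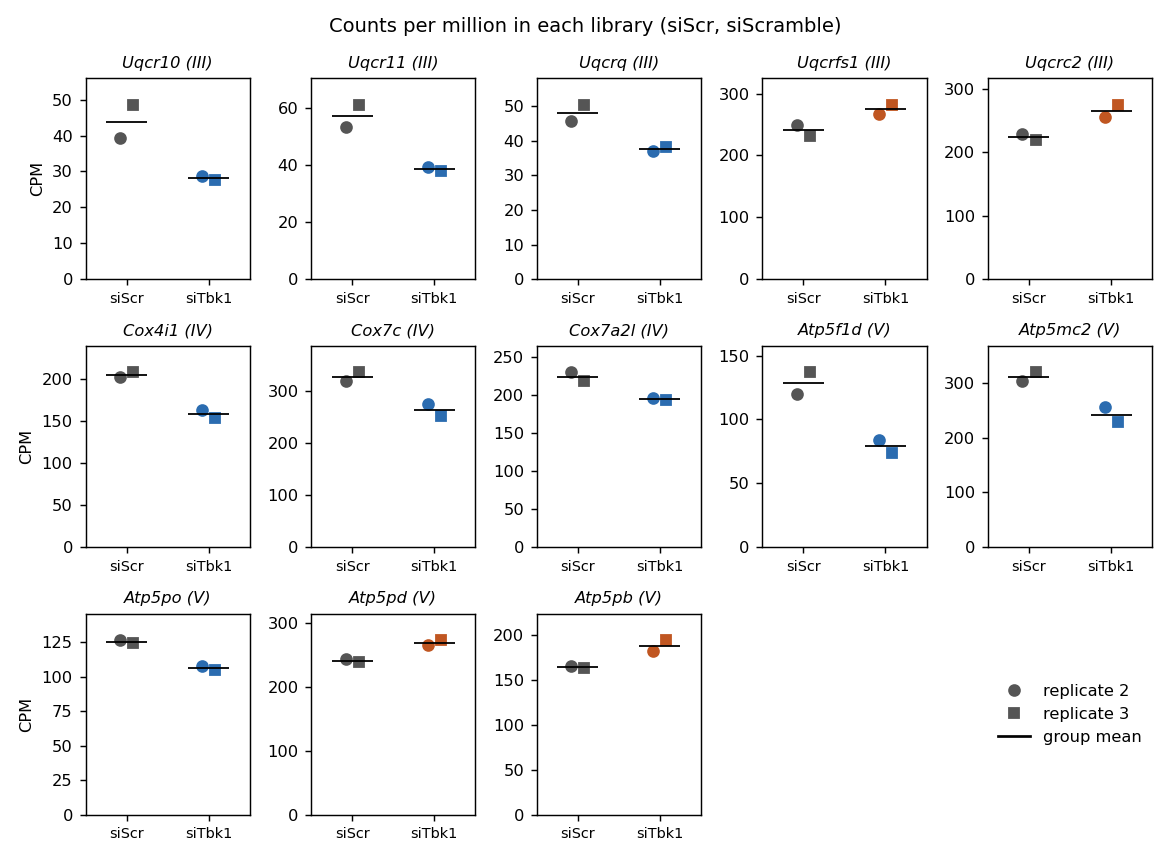
CPM in each of the 4 libraries (circles for replicate 2, squares for replicate 3, bar for the group mean, axes from 0) for the 13 members named with the value in every library. In each panel both siTbk1 libraries lie on 1 side of both siScramble libraries, below them for 9 genes (blue) and above them for 4 (orange).

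In complex IV, 4 of 11 subunits (36.4%) were lower and 0 higher, beside 24.8% and 24.4% of all tested genes. The other 7 subunits did not pass the test, and none of the 11 reached 1.5-fold. None of these 11 subunits was higher at an unadjusted p under 0.05 in edgeR, nor at an adjusted p under 0.05 in DESeq2 or limma-voom. After correction for genomic span, however, Cox5a (0.22, adjusted p = 0.046) and Cox7a2l2 (0.21, adjusted p = 0.029) were called higher. The median log2 fold change was −0.05, and 0.01 after that correction. The summed level was 2075 and 2142 CPM in siScramble and 1937 and 1956 CPM in siTbk1 libraries.

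Cox4i1 (chr19:54245950-54252226), the main isoform of a large nuclear subunit that binds ATP as a regulator, showed the largest fall. It was at 202 and 208 CPM in siScramble and at 163 and 153 CPM in siTbk1 libraries, or 205 ± 4.02 and 158 ± 6.55 (SD, n = 2 each). The distance between the groups was far larger than the spread within them, and the log2 fold change was −0.37 (SE 0.05, adjusted p = 0.00015). Cox7c (chr2:14699882-14701904), a small membrane subunit, was at 319 and 335 CPM in siScramble and at 275 and 252 CPM in siTbk1 libraries (−0.31, SE 0.06, adjusted p = 0.00081). Cox7a2l (chr6:6695827-6709784), which joins complexes III and IV into supercomplexes, was at 229.9 and 219 CPM in siScramble and at 196 and 194 CPM in siTbk1 libraries (−0.20, SE 0.05, adjusted p = 0.0066). Without siScramble replicate 2 its log2 fold change was −0.17 (adjusted p = 0.052). Cox6b1, listed at chr2:211337271-211337532, was lower by the smallest margin (86.2 and 90.1 against 78.3 and 79.9 CPM, log2 fold change −0.16, adjusted p = 0.036). It lost the call without siScramble replicate 3 (−0.13), siTbk1 replicate 2 (−0.15) or siTbk1 replicate 3 (−0.17).

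The other 7 subunits of complex IV had log2 fold changes from −0.15 to 0.15. Cox5b, which holds a zinc ion on the matrix side, stood at −0.15 (adjusted p = 0.14), and Cox5a, which joins Cox4i1 early in assembly, stood at 0.15 (adjusted p = 0.13). Each passed the test once a library was left out. Cox5b was lower without siScramble replicate 2 (−0.28) or siTbk1 replicate 3 (−0.24), and Cox5a was higher without siTbk1 replicate 2 (0.26). Cox6c, Cox6a1, Cox8a and Cox7b lay within −0.05 to 0.04, and the row named Cox7a2l2 was at 0.10 (adjusted p = 0.25). Of the isoform pairs that differ between tissues, the members held only Cox4i1, Cox6a1 and Cox6b1, and their counterparts Cox4i2, Cox6a2 and Cox6b2, as well as Cox7a1, were not analysed here. The ratio of Cox4i1 to Cox5a counts was 3.85 and 4.10 in siScramble and 3.10 and 2.46 in siTbk1 libraries.

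The promoter of Cox4i1 is shown as that of the complex IV gene with the largest fall (GRCr8, chr19:65630133-65630432, + strand, capitals as above).
Cox4i1: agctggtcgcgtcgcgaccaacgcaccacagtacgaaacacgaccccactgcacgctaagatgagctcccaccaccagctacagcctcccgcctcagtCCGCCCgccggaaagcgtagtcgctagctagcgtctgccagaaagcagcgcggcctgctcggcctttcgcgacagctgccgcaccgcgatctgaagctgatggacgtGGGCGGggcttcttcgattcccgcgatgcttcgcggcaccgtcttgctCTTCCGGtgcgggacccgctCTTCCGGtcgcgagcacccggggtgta
It holds an ETS/GABP core in 2 places downstream of the start and an SP1 core in 2 places upstream.

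In complex V, 6 of 17 genes (35.3%) were lower and 2 (11.8%) higher, beside 24.8% and 24.4% of all tested genes. The other 9 genes of the complex did not pass the test. The median log2 fold change was −0.08, and the summed level was 5728 and 5689.7 CPM in siScramble and 5442 and 5464 CPM in siTbk1 libraries. Lower genes lay in the F1 head (3 of 5) and the c-ring (2 of 3). The stalk that links them held 1 lower and 2 higher genes of 4, and the 4 accessory membrane subunits had none in either direction, also at an unadjusted p under 0.05. After correction for genomic span, however, complex V held 2 lower and 5 higher genes (median 0.0028). Only Atp5f1d and Atp5mc2 were then called lower. The accessory subunits Atp5md (0.26, adjusted p = 0.0060) and Atp5mf (0.16, adjusted p = 0.040) were among the 5 higher.

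In the F1 head, which makes ATP, Atp5f1d (chr7:12426809-12432131) showed the largest change of all 38 members. This δ subunit of the central stalk was at 119.7 and 137 CPM in siScramble and at 84.1 and 73.6 CPM in siTbk1 libraries, or 128 ± 12.1 and 78.9 ± 7.45 (SD, n = 2 each). The groups were well apart, with a log2 fold change of −0.70 (SE 0.08, adjusted p = 2.8e-05), so that the level fell by 38.4%. The call and the 1.5-fold limit held with each library left out, at −0.60 to −0.81. Atp5f1e, the ε subunit beside it, was at 74.1 and 78.9 CPM in siScramble and at 68.8 and 61.2 CPM in siTbk1 libraries (−0.23, SE 0.07, adjusted p = 0.013), but at −0.19 without siScramble replicate 3 and −0.15 without siTbk1 replicate 3 it was not called. Atp5f1a, the α subunit, fell from 1250.3 and 1210.1 CPM to 1116 and 1065 CPM (−0.17, SE 0.05, adjusted p = 0.016). Its call was lost without siScramble replicate 2 (−0.15) or siTbk1 replicate 3 (−0.14). The catalytic β subunit Atp5f1b was at −0.02 (adjusted p = 0.82) and the rotating γ subunit Atp5f1c at 0.13 (adjusted p = 0.067). The ratio of Atp5f1d to Atp5f1c counts was 0.569 and 0.686 in siScramble and 0.382 and 0.324 in siTbk1 libraries, a log2 difference of −0.83, or −0.59 after correction for genomic span. These genes differ widely in span, at 5322 and 184899 bases.

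The c-ring turns as protons pass and is built from copies of a single mature protein that 3 genes encode. Atp5mc2 (chr7:144264199-144272579) was at 305 and 320.1 CPM in siScramble and at 256 and 229 CPM in siTbk1 libraries (−0.36, SE 0.06, adjusted p = 0.00044). Atp5mc1 was at 245 and 262 CPM in siScramble and at 225 and 224 CPM in siTbk1 libraries (−0.18, SE 0.05, adjusted p = 0.016), and it was not called without siScramble replicate 3 (−0.13) or siTbk1 replicate 3 (−0.17). Atp5mc3 was at 209.8 and 208 CPM in siScramble and at 203 and 224 CPM in siTbk1 libraries, so that its groups overlapped (0.03, adjusted p = 0.70). The ratio of Atp5mc2 to Atp5mc3 counts fell from 1.45 and 1.54 to 1.26 and 1.02. Summed over the 3 genes the level was 759.7 and 790.3 CPM in siScramble and 684 and 677 CPM in siTbk1 libraries. Atp5mc1 and Atp5mc2 had fractional counts and Atp5mc3 had whole ones.

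The peripheral stalk, which holds the F1 head still, showed both directions. Atp5po (chr11:32081574-32088003), the OSCP subunit at its top, was at 126 and 124 CPM in siScramble and at 108 and 105 CPM in siTbk1 libraries (−0.24, SE 0.05, adjusted p = 0.0030). Atp5pb (chr2:208566385-208577147), the b subunit along its length, was at 166 and 163 CPM in siScramble and at 182 and 194 CPM in siTbk1 libraries (0.20, SE 0.05, adjusted p = 0.0099). Atp5pd (chr10:103967312-103972669), the d subunit, was at 244 and 238 CPM in siScramble and at 265 and 272 CPM in siTbk1 libraries (0.16, SE 0.05, adjusted p = 0.021). The groups did not overlap for any of the 3. The gain of Atp5pb was not called without siTbk1 replicate 3 (0.15), and that of Atp5pd was lost without siScramble replicate 3 (0.14), siTbk1 replicate 2 (0.17) or siTbk1 replicate 3 (0.14). Atp5pf, the coupling factor of the stalk, was at 0.10 (adjusted p = 0.14). After correction for genomic span, Atp5po was not called (−0.13, adjusted p = 0.070), and Atp5pb (0.27), Atp5pd (0.27) and Atp5pf (0.20) were called higher. The ratio of Atp5pb to Atp5po counts was 1.31 and 1.31 in siScramble and 1.69 and 1.86 in siTbk1 libraries.

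The remaining genes of complex V did not pass the test. Atp5if1, the inhibitor that stops the enzyme from running backwards, was at 93.8 and 112 CPM in siScramble and at 92.6 and 91.4 CPM in siTbk1 libraries (−0.16, adjusted p = 0.092), and without siScramble replicate 2 it was called lower (−0.29). The accessory subunits Atp5me, Atp5mg and Atp5mf stood at −0.13, −0.08 and 0.06, and Atp5me was called lower without siTbk1 replicate 2 (−0.21). Atp5md had the widest spread of any member, at 75.8 and 93.1 CPM in siScramble and 80.4 and 113 CPM in siTbk1 libraries (0.19, SE 0.13, adjusted p = 0.24), and was called higher without siScramble replicate 3 (0.34) or siTbk1 replicate 2 (0.40). Both libraries of replicate 3 were high for this gene. Cycs, the carrier between complexes III and IV, was also higher in replicate 3 of both groups, at 60.0 and 70.8 CPM in siScramble and 62.0 and 72.0 CPM in siTbk1 libraries (0.04, SE 0.09, adjusted p = 0.76).

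Promoters of the stalk genes Atp5po and Atp5pb are shown since these subunits bind each other and their mRNAs moved apart (GRCr8, chr11:44657434-44657733 and chr2:196123688-196123987, both − strand). That of Atp5mc2 is added as the c-ring gene with the larger fall (chr7:135678169-135678468, − strand).
Atp5po: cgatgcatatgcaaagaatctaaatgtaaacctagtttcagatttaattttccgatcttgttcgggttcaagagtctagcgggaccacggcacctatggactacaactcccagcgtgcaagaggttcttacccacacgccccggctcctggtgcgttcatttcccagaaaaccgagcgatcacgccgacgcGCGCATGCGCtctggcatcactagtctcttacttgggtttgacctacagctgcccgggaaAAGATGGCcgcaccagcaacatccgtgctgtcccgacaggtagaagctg
Atp5pb: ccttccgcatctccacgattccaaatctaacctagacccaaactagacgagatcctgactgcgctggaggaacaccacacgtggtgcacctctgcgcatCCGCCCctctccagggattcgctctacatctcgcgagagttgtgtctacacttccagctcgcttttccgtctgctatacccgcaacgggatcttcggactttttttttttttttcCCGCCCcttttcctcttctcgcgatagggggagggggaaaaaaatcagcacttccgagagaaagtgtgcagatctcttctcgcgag
Atp5mc2: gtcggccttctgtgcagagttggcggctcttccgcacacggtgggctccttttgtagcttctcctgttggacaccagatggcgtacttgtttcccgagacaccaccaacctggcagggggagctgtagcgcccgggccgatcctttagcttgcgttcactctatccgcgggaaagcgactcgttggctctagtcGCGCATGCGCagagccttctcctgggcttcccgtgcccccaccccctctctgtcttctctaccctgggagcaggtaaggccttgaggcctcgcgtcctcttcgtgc
Atp5po holds an NRF1 core and, at the start, a YY1 core. Atp5mc2 holds an NRF1 core, and Atp5pb an SP1 core in 2 places and none of the others. In Atp5po and Atp5mc2 the NRF1 core reads on both strands, and the overlapping matches were counted as one gene.

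A promoter window was found for 28 of the 38 members. The ETS/GABP core was in 10 of them (35.7%), the NRF1 core in 5 (17.9%), the YY1 core in 6 (21.4%), the ERR core in 6 (21.4%), the SP1 core in 10 (35.7%) and the CREB core in 1 (3.57%, Cox8a). Among 11110 windows of the other tested genes the shares were 16.9% for ETS/GABP, 5.01% for NRF1, 5.14% for YY1, 2.88% for ERR, 61.6% for SP1 and 3.01% for CREB. Among all 33469 windows of the table they were 8.75%, 2.47%, 3.17%, 4.61%, 33.1% and 1.83% in the same order. The cores of ETS/GABP, NRF1, YY1 and ERR were thus more frequent in the member windows than in those of other tested genes, and the SP1 core less frequent, given as a description without a test.

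The motifs did not divide the members by direction in any simple way. Of the 12 lower genes with a window, 3 held an NRF1, 3 an ETS/GABP, 2 a YY1, 3 an ERR and 4 an SP1 core. Of the 3 higher genes, 1 held ETS/GABP and 2 held SP1, and none held the other cores. Of the 13 genes not past the test, 6 held ETS/GABP, 2 NRF1, 4 YY1, 3 ERR and 4 SP1. The 6 members without any of the cores included 4 lower genes, among them Atp5f1d and Uqcr10 with the largest falls, as well as Cox7c and Atp5mc1. Median GC content was 56.0% over the 28 windows and 61.0% over those of other tested genes.

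**Figure D3:**
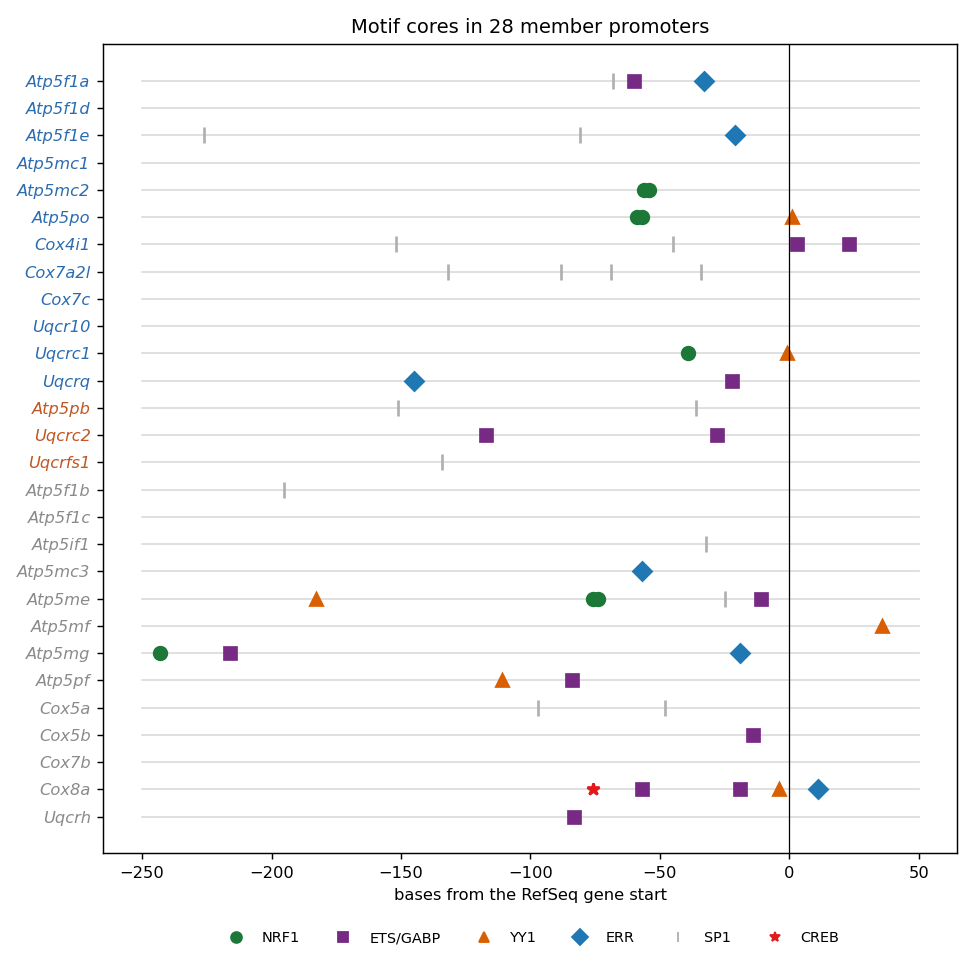
Positions of the 6 motif cores on either strand, in bases from the RefSeq gene start, in the promoter windows of 28 members, with gene names in blue for lower, orange for higher and grey for genes not past the test. Windows without a symbol, such as those of Atp5f1d and Uqcr10, hold none of the cores, and 3 of the 12 lower genes and none of the 3 higher genes carry the NRF1 core.

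Of 15 regulators of respiratory chain genes, 6 (40.0%) were higher and 2 (13.3%) lower, beside 24.4% and 24.8% of all tested genes. Most of the 15 bind such cores or act with factors that do. Tfam, Tfb1m and Tfb2m instead act inside mitochondria, and Tfb2m (0.29) was among the 6 higher genes. The median log2 fold change of the list was 0.24. Its median genomic span was 41559 bases, against 20091 bases over all tested genes, and the list was not recounted after correction for span. Of the genes for factors that bind the cores themselves, Gabpa (0.33), Yy1 (0.29), Sp1 (0.30) and Esrrg (0.52) were higher and Esrra was lower. Ppargc1a, the coactivator PGC-1α that drives mitochondrial biogenesis, was at 5.996 and 5.65 CPM in siScramble and at 10.2 and 9.75 CPM in siTbk1 libraries (0.77, SE 0.11, adjusted p = 0.00011). Esrra, which encodes the ERRα receptor that PGC-1α activates and is a paralog of Esrrg, was at 30.4 and 37.2 CPM in siScramble and at 24.1 and 19.5 CPM in siTbk1 libraries (−0.62, SE 0.11, adjusted p = 0.00054). These were the 2 regulators past 1.5-fold, and they moved in opposite directions. The other lower regulator was Pprc1, a coactivator gene related to Ppargc1a. It was at 134 and 139.8 CPM in siScramble and at 107 and 98.6 CPM in siTbk1 libraries (−0.41, SE 0.06, adjusted p = 0.00016). The third gene of this family, Ppargc1b, was at −0.38 (adjusted p = 0.13). Nrf1 was at −0.10 (adjusted p = 0.25) and Creb1 at 0.24 (adjusted p = 0.22).

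The mitochondrially encoded subunits of the same complexes were higher, whereas 15 of the 38 nuclear members were lower, 4 higher and 19 not past the test. All 13 mRNAs of the mitochondrial genome were higher, with a median log2 fold change of 0.45 and no overlap of the groups. Among them were Mt-cyb of complex III (0.39), Mt-co1, Mt-co2 and Mt-co3 of complex IV (0.45, 0.47 and 0.46) and Mt-atp6 and Mt-atp8 of complex V (0.40 and 0.47). Their summed level was 61502 and 59134 CPM in siScramble and 79637 and 84493 CPM in siTbk1 libraries, far above the 8923 and 8988 against 8496 and 8594 CPM of the 38 nuclear members. With library size alone in place of TMM factors, 17 members (44.7%) were lower and 3 (7.89%) higher, beside 28.6% and 20.2% of all tested genes under that scaling. The part of the mitochondrial mRNAs in the nuclear values was not tested.

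**Figure D4:**
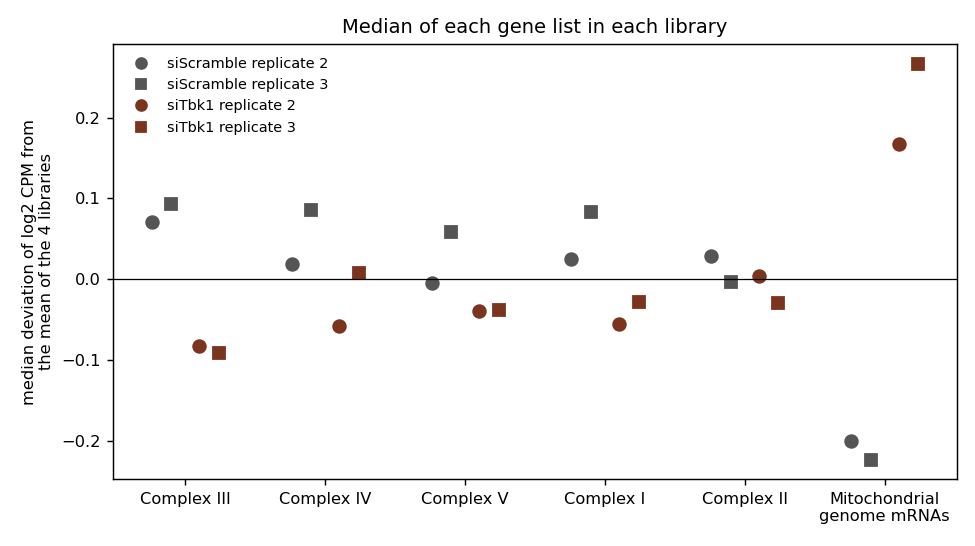
Median over the genes of each list of the deviation of log2 CPM from the gene's mean over the 4 libraries, for each library (grey for siScramble, brown for siTbk1, circles for replicate 2, squares for replicate 3). For complex III the siScramble libraries are at 0.07 and 0.09 and the siTbk1 libraries at −0.08 and −0.09, the complex IV and V medians lie closer together, and the mitochondrial genome mRNAs run from −0.22 to 0.27 in the opposite order.

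Complex I, which feeds electrons into the same chain, had 14 of 35 nuclear subunits lower (40.0%) and 1 higher (2.86%), with a median of −0.05. Of all tested genes, 24.8% were lower and 24.4% higher. Ndufb7 (−0.97) and Ndufs7 (−0.93) were the 2 subunits past 1.5-fold. Of the 4 complex II subunits, 1 was lower and 1 higher. The share of lower genes was thus 39.5% for the members and 40.0% for complex I, and the difference of these shares was not tested. Both are shares before correction for genomic span, after which that of the members was 21.1%. Complex I genes were short too (median span 7079 bases, against 20091 over all tested genes) and were not recounted after it.

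Assembly factors, which the name rule leaves out, were measured separately. For complex III, 2 of 6 were lower and 0 higher (median −0.15), the lower ones being Uqcc2 (−0.32) and Uqcc3 (−0.38). None of the 6 was higher at an unadjusted p under 0.05. For complex IV, 6 of 21 (28.6%) were lower and 5 (23.8%) higher (median 0.04), close to the 24.8% and 24.4% of all tested genes. Cox11, which delivers copper to the catalytic subunit, was the only one past 1.5-fold, at 25.7 and 26.3 CPM in siScramble and at 14.5 and 16.1 CPM in siTbk1 libraries (−0.77, SE 0.08, adjusted p = 1.8e-05). The complex IV list also held Ndufa4, which carries a complex I name but was placed with complex IV here. It was not among the 11 subunits above, and it was 1 of the 5 higher genes (0.18, SE 0.05, adjusted p = 0.011). For complex V, 1 of 5 was lower and 1 higher. Other factors named in these lists were not analysed here.

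Counts that are not whole may mark rows whose reads the authors' counting shared with other loci. The counting settings are not given, so such values were taken as less certain. A fraction was present in 30.4% of listed genes and in 14 of the 38 members, namely Uqcrb, Cox5a, Cox5b, Cox6b1, Cox7a2l2, Atp5f1c, Atp5f1d, Atp5mc1, Atp5mc2, Atp5md, Atp5mf, Atp5pb, Atp5pd and Cycs. Of these, 4 were lower and 2 higher, with a median of 0.05. Of the 24 members with whole counts, 11 were lower and 2 higher, with a median of −0.14. The fractions concern 1 of 9 genes in complex III, 4 of 11 in complex IV and 8 of 17 in complex V, so complex III rests most on whole counts. Both higher stalk genes and the largest fall, Atp5f1d, are among the fractional rows.

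For 4 of these rows the listed locus is itself doubtful. Uqcrb (chr1:94718402-94718877), Cox6b1 (chr2:211337271-211337532), Cycs (chr18:62476383-62476701) and Atp5md (chr10:89187167-89187475) span 475, 261, 318 and 308 bases in rn6, too short for the multi-exon genes of those names. The RefSeq table (GRCr8) places each of these genes on another chromosome and lists pseudogenes named Uqcrb-ps1 and Cox6b1-ps1. The row Cox7a2l2 on chromosome 8 likewise lies on another chromosome than the RefSeq gene of that name. Whether the values of these 5 rows hold reads of the named gene or of another copy cannot be told apart here. A pseudogene named Uqcr10-ps1 is listed as well. The Uqcr10 row had whole counts and lies on the same chromosome as the RefSeq gene.

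Lower and higher members also differed in genomic span, the distance from start to stop of the gene. The median span was 4651 bases for the 15 lower, 8059.5 bases for the 4 higher and 4098 bases for the 19 other members. Over all tested genes it was 13835 bases for lower, 33895 bases for higher and 18753 bases for the others, so the members were short in each class. Across the 38 members the correlation of log2 fold change with log10 span was weak (Spearman 0.17, Pearson 0.10), and across all 13953 genes it was 0.21 and 0.18. These are descriptions across genes that share the same libraries.

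When the trend of each library along genomic span was removed, 8 members (21.1%) were lower and 9 (23.7%) higher, in place of 15 and 4. Under the same correction 23.6% of all tested genes were lower and 23.6% higher, so that the members' shares lay near the background. The 8 lower were Atp5f1d (−0.59), Uqcr10 (−0.52), Uqcr11 (−0.45), Atp5mc2 (−0.27), Cox4i1 (−0.27), Uqcrc1 (−0.26), Uqcrq (−0.24) and Cox7c (−0.20), all of which were lower before. The 4 higher members stayed higher and were joined by Cox5a, Cox7a2l2, Atp5md, Atp5mf and Atp5pf. The calls of Atp5f1a, Atp5f1e, Atp5mc1, Atp5po, Cox6b1, Cox7a2l and Cyc1 were lost, and no gene went from lower to higher. By complex, 4 were lower and 2 higher in complex III, 2 and 2 in complex IV, and 2 and 5 in complex V, with medians of −0.05, 0.01 and 0.0028. The excess of lower over higher members, and the negative medians of complexes IV and V, therefore depended on this step, whereas the calls of the 8 genes above did not. Each of their falls was smaller after it, and Uqcr10, at −0.63 before and −0.52 after, no longer reached 1.5-fold.

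**Figure D5:**
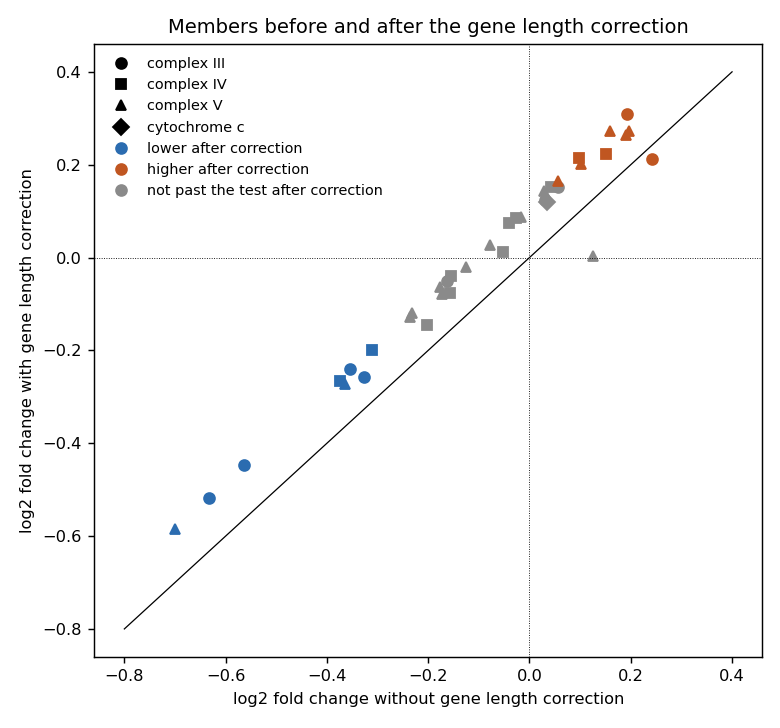
Log2 fold change of the 38 members without (horizontal) and with (vertical) correction for genomic span, with symbols for the complexes, colours for the call after correction and a diagonal line of equality. Most genes lie above the line, with shifts from −0.12 to 0.12, and the 8 genes still lower after correction are at −0.20 or below.

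Atp5f1d and Uqcr11 lie close together on chromosome 7, 261 kb apart from end to end (chr7:12171185-12432131). Between them 17 genes are listed, of which 16 were tested, 10 were lower and 0 higher, beside 24.8% and 24.4% of all tested genes. The 16 had a median log2 fold change of −0.47 and a median span of 7545 bases, against 20091 bases over all tested genes. They were not recounted after correction for genomic span. This window was chosen after the values of both members were seen, so its count is a description.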

How the data were processed

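Libraries of polyadenylated RNA (TruSeq Stranded mRNA) were made from siScramble- and siTbk1-transfected INS-1 832/13 β-cells, 2 of each. The authors deposited estimated counts per gene (rn6), 1 column per library and not scaled between libraries; the submitters' processing notes name STAR 2.6.1d and Partek without a role, and the counting settings are not given in the sources used here. Values more than 0.001 from a whole number were called fractional, and all were rounded. Genes were filtered (filterByExpr, minimum count 10), scaled (TMM) and tested with edgeR 4.0.16 (glmQLFit, glmQLFTest, R 4.3.3), with Benjamini-Hochberg adjustment over 13953 genes and no covariate. The standard error was taken as the log2 fold change over the square root of F. DESeq2 1.42.0, limma 3.58.1 (voom), other scalings and filters, glmTreat, a replicate block, a loess correction (span 0.5) for genomic span (stop minus start) and leaving out each library were alternatives. Calling genes on simulated counts with known changes was checked first.

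The members, lists and promoter motifs were chosen with earlier results of these data known. Members named with values in every library were those past adjusted p 0.05 and 1.5-fold and, in each complex, up to 3 called genes a direction with the greatest log2 fold change; other called members and those discussed for a paralog, a doubtful locus or a library they rest on were given values in addition. At these depths 3 counts equal 0.0625 to 0.0795 CPM, far under any member, which covers counting error only. The biological coefficient of variation was 0.0482. RefSeq names and promoters (GRCr8) were matched by symbol and chromosome, and no rn6 coordinate was converted.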

Additional observations from a re-analysis of the deposited data

How the results depend on the processing

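The 15 lower and 4 higher calls were the same genes in DESeq2, limma-voom, with DESeq2 size factors or upper-quartile scaling, without a filter, with 10 counts in every library and with counts rounded down. With library size alone the medians were −0.21, −0.10 and −0.13 for complexes III, IV and V (−0.04 over all tested genes), and Atp5pd was not called (0.11, adjusted p = 0.079). Among members with whole counts, 2 were higher and 1 past 1.5-fold, with medians of −0.24 for complex III and −0.13 for complex V. Against 1.5-fold itself, 0 members were called by glmTreat. The correction for genomic span gave 8 lower, 9 higher and 1 past 1.5-fold, with medians of −0.0507, 0.0129 and 0.0028. Together with the replicate block it gave 8 lower, 8 higher and 1 past 1.5-fold, with medians of −0.0506, 0.0146 and 0.0033. Why these values moved was not tested.

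With each library left out in turn, 11 to 15 members were lower, 1 (without siTbk1 replicate 3) to 5 (without siTbk1 replicate 2) were higher and 1 (without siScramble replicate 3) to 3 were past 1.5-fold. The medians ran from −0.18 to −0.15 for complex III, from −0.13 to −0.0227 for complex IV and from −0.11 to −0.0353 for complex V. A group with a lone library was assumed to vary like the other.

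Nothing in the labels pairs same-numbered libraries beyond the number, though both of replicate 2 were deeper than both of replicate 3. Their deviations correlated at 0.0041 over 13953 genes and at −0.39 over the 7945 with a mean log2 CPM of at least 4. The replicate block gave 13 lower and 3 higher members, without Cox6b1, Cyc1 and Atp5pd (0.16, adjusted p = 0.078). Crossed numbers, tried after the data were seen, gave 15 lower and 5 higher. For the 13 members named with values in every library, 191 of the planned recalculations kept direction and side of the threshold, 13 kept the direction only and 0 reversed. With 2 libraries a group the size of these small changes is imprecise.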
